A study of Arabidopsis thaliana with 24 samples.

Results

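Whole roots of 2 wild-type accessions of Arabidopsis thaliana, Columbia (Col-0) and Wassilewskija (WS), were compared on the ground. The comparison used 6 of the 24 poly(A) RNA libraries of the series: 3 Col-0 and 3 WS ground control libraries that accompanied the Virgin Galactic suborbital flight. All were chosen by their labels. The roots were wild type and 10 days old, grown under continuous light on vertical plates of sucrose-containing Murashige-Skoog medium set with Phytagel. They were kept at the flight site in ambient conditions and fixed in RNAlater before the roots were cut off. The labels place the replicates of a group in 1 fixation tube, and p-values below therefore describe the spread among these samples, which may be technical. The other 18 libraries serve here as libraries in which a difference could be looked for again: 3 Col-0 and 3 WS flight libraries of the same mission, and 12 libraries of 11-day-old roots from the later Blue Origin (BO) mission. The BO libraries came from flight and ground roots of WS and of sku5, a skewing mutant in the WS background. Vehicle, year, site and age all change between the missions and cannot be told apart.

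Col-0 and WS are natural inbred lines. Col-0 supplied the reference genome sequence of the species, and accessions are known to differ from it by small variants, by lost or duplicated genes, and by silencing of repeated genes through DNA methylation. Immune receptor clusters and the enzymes of glucosinolates, the sulphur-containing defence compounds of the cabbage family, are classic places of such variation. Roots also switch defence genes on and off with growth conditions, through salicylate, camalexin and calcium signalling. Levels of a gene can therefore differ between accessions because the gene itself differs or because its regulation does, and RNA levels alone do not separate these.

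Values were FPKM, which count fragments relative to transcript length and to the size of the library. Col-0 and WS values stood in 2 tables, which shared 32844 genes of the 33469 in the Col-0 table. Of these, 19028 reached 1 FPKM in at least 3 of the 6 libraries and were tested. Between 18425 and 18605 genes lay at 1 FPKM or more in the Col-0 libraries, and between 18630 and 18873 in the WS libraries. These counts, and the ribosomal RNA shares below, cover all genes of each table, and 625 genes stood in the Col-0 table only. The number of reads behind each value is unknown. Accession, table and any difference in how the tables were made cannot be told apart in anything below. Reads that differ too much from the reference may fail to align, so a gene listed at 0 may be absent, silent or divergent, and these cases are not separated here. Ribosomal RNA genes held between 17.53% and 26.92% of the summed FPKM in the Col-0 libraries and between 12.57% and 18.99% in the WS libraries. Their part in the results was tested by leaving them out and rescaling, which left 1173 genes higher and 1390 lower, an alternative chosen after seeing the data.

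Col-0 roots differed from WS roots at many genes. With limma on log2(FPKM + 1) and a Benjamini-Hochberg adjusted p under 0.05, 2545 genes (13.4% of those tested) were called. Of these, 1205 (6.33%) were higher and 1340 (7.04%) were lower in Col-0, beside a median log2 difference of -0.06 over all tested genes. A log2 difference of at least 1 was also reached by 632 higher genes (3.32%) and 861 lower genes (4.52%), and one of at least 4 by 55 and 27 genes. At an unadjusted p under 0.05 the counts were 2265 and 2765. All 3 Col-0 ground libraries lay above all 3 WS ground libraries for 2654 tested genes (13.9%) and below them for 3436 (18.1%). Non-overlap on the ground, where given below, uses the same 6 libraries as the calls. Pearson's r across tested genes lay between 0.948 and 0.957 within Col-0, between 0.959 and 0.972 within WS, and between 0.889 and 0.904 across the accessions. Single libraries moved the counts: without Col-0 library 1, 2 or 3, or without WS library 1, the number of higher genes was 649, 781, 628 or 760, and without WS library 1, 2 or 3 the number of lower genes was 691, 863 or 857.

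**Figure D1:**
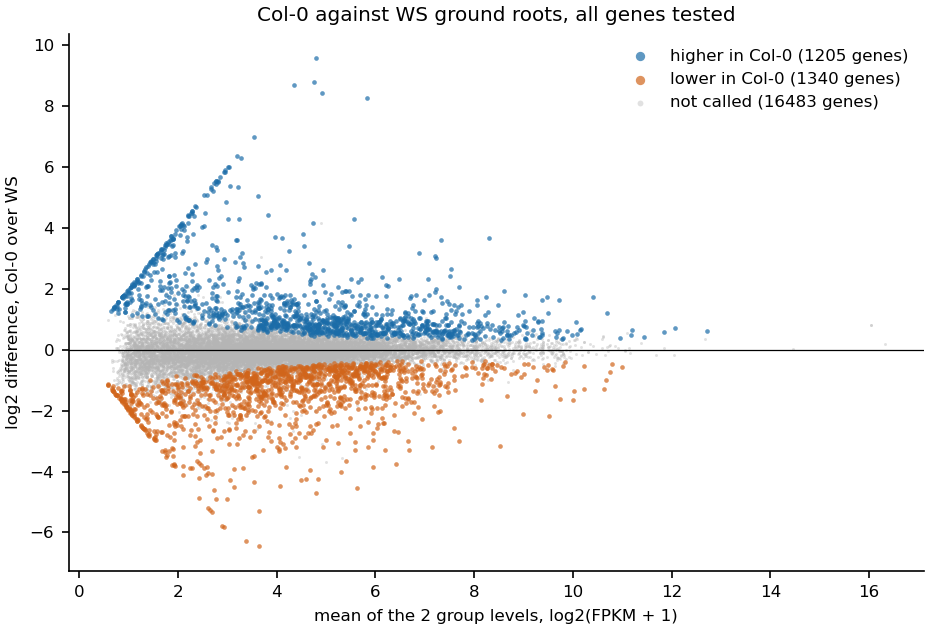
Log2 difference (Col-0 over WS, y) against the mean level of the group means on the log2(FPKM + 1) scale (x), with 1 point for each of 19028 tested genes. The 1205 genes called higher in Col-0 are blue, the 1340 called lower are orange, and the straight edges at low levels are genes listed at or near 0 in one accession.

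The higher and lower calls behaved differently in libraries that the fit did not use. Of the 1205 higher genes, 970 (80.5%) had all 3 Col-0 flight libraries above all 3 WS flight libraries, against 13.4% of all tested genes. Of the 1340 lower genes, 870 (64.9%) had all 3 Col-0 flight libraries below the WS ones, against 16.8% of all tested genes. The Col-0 flight libraries were then set against the 12 BO libraries of WS background. There, 778 of the higher genes (64.6%, background 12.9%) but 366 of the lower genes (27.3%, background 12.6%) kept their side completely. On the opposite side, 125 of the 1340 lower genes lay completely above the BO libraries, as did 12.9% of all tested genes. Of the 1205 higher genes, 10 lay completely below them, as did 12.6% of all tested genes. Over all 24 libraries, which include those behind the calls, the 6 Col-0 libraries lay apart from the other 18 in the called direction for 672 higher genes (55.8%, background 4.41%) and 264 lower genes (19.7%, background 2.17%). Many differences thus separated the accessions in every library of the series, and many of the lower calls, described next, did not.

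Defence genes of the salicylate and camalexin pathways were the list with the highest share of calls, all of them lower in Col-0. Of 14 tested members, 11 were called lower (78.6%, beside 7.04% of all tested genes) and 0 higher, with a median log2 difference of -1.71. PBS3, an enzyme of salicylate synthesis, had 3.32, 6.37 and 3.28 FPKM in Col-0 and 54.7, 50.0 and 46.1 FPKM in WS. Its log2 difference was -3.31 (SE 0.23, limma adjusted p = 6.47e-05). Every WS value was several times every Col-0 value, and the groups did not overlap.

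The camalexin enzymes showed the same separation. CYP71A12, which makes the indole precursor, had 24.4, 45.0 and 27.4 FPKM in Col-0 and 315.5, 370.6 and 261.1 FPKM in WS (log2 -3.29, SE 0.23, limma adjusted p = 5.76e-05). CYP71A13, its close relative, had 0, 0.09 and 0.56 FPKM in Col-0 and 33.0, 57.6 and 22.3 FPKM in WS (log2 -4.91, SE 0.36, adjusted p = 7.76e-05). PAD3, which completes camalexin, had 3.35, 10.3 and 5.20 FPKM in Col-0 and 55.3, 70.3 and 55.4 FPKM in WS. For each of these enzymes the Col-0 and WS libraries did not overlap.

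Regulators of the pathway were called lower as well. CBP60G, a transcription factor of salicylate synthesis, had 19.5, 32.9 and 22.5 FPKM in Col-0 and 88.5, 99.7 and 99.7 FPKM in WS. ALD1, which starts the synthesis of the immune signal pipecolate, had 1.19, 2.62 and 2.67 FPKM in Col-0 and 24.1, 29.5 and 22.4 FPKM in WS. Both separated completely, as did SARD1 (log2 -2.13), FMO1 (log2 -1.49), ICS1 (log2 -1.35), PAD4 (log2 -1.10) and EDS1 (log2 -1.07). SAG101, a partner of EDS1, was not called (log2 -0.61, SE 0.18, adjusted p = 0.0551), nor was the salicylate receptor NPR1 (log2 -0.39, SE 0.19, adjusted p = 0.226).

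Glutathione transferases, which conjugate glutathione to reactive compounds and include camalexin-related members, followed the same direction. Of 11 tested members, 7 were called lower (63.6%, beside 7.04% of all tested genes) and 0 higher, with a median log2 difference of -1.28. GSTF6 had 100.2, 165.9 and 104.2 FPKM in Col-0 and 1026, 1276 and 983 FPKM in WS (log2 -3.17, SE 0.20, limma adjusted p = 3.66e-05). GSTF7, its neighbour, had 292.5, 445.6 and 307.8 FPKM in Col-0 and 1461, 1739 and 1453 FPKM in WS. GSTF2, among the most abundant transcripts of the list, had 994, 1104 and 962 FPKM in Col-0 and 2387, 2531 and 2510 FPKM in WS. All 3 genes separated completely. GSTU7 was not called (log2 -0.09, SE 0.10, adjusted p = 0.626), and GSTU25 was not called (log2 0.42, SE 0.15, adjusted p = 0.111).

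Touch and early stress genes also lay lower. Of 11 tested members, 8 were called lower (72.7%, beside 7.04% of all tested genes) and 0 higher, with a median log2 difference of -1.16. TCH3, a calmodulin-like protein induced by touch, had 49.0, 100.7 and 71.6 FPKM in Col-0 and 481, 584 and 665 FPKM in WS (log2 -3.0, SE 0.24, limma adjusted p = 0.000127). WRKY33, a transcription factor that activates camalexin genes, had 51.7, 77.8 and 52.4 FPKM in Col-0 and 199, 238 and 230.4 FPKM in WS. JAZ1, a repressor of jasmonate signalling, had 27.0, 33.1 and 40.0 FPKM in Col-0 and 83.3, 93.1 and 106.6 FPKM in WS. The groups did not overlap for any of these, whereas TCH4, an enzyme that remodels xyloglucan in the wall, was not called (log2 -0.64, SE 0.37, adjusted p = 0.322).

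**Figure D2:**
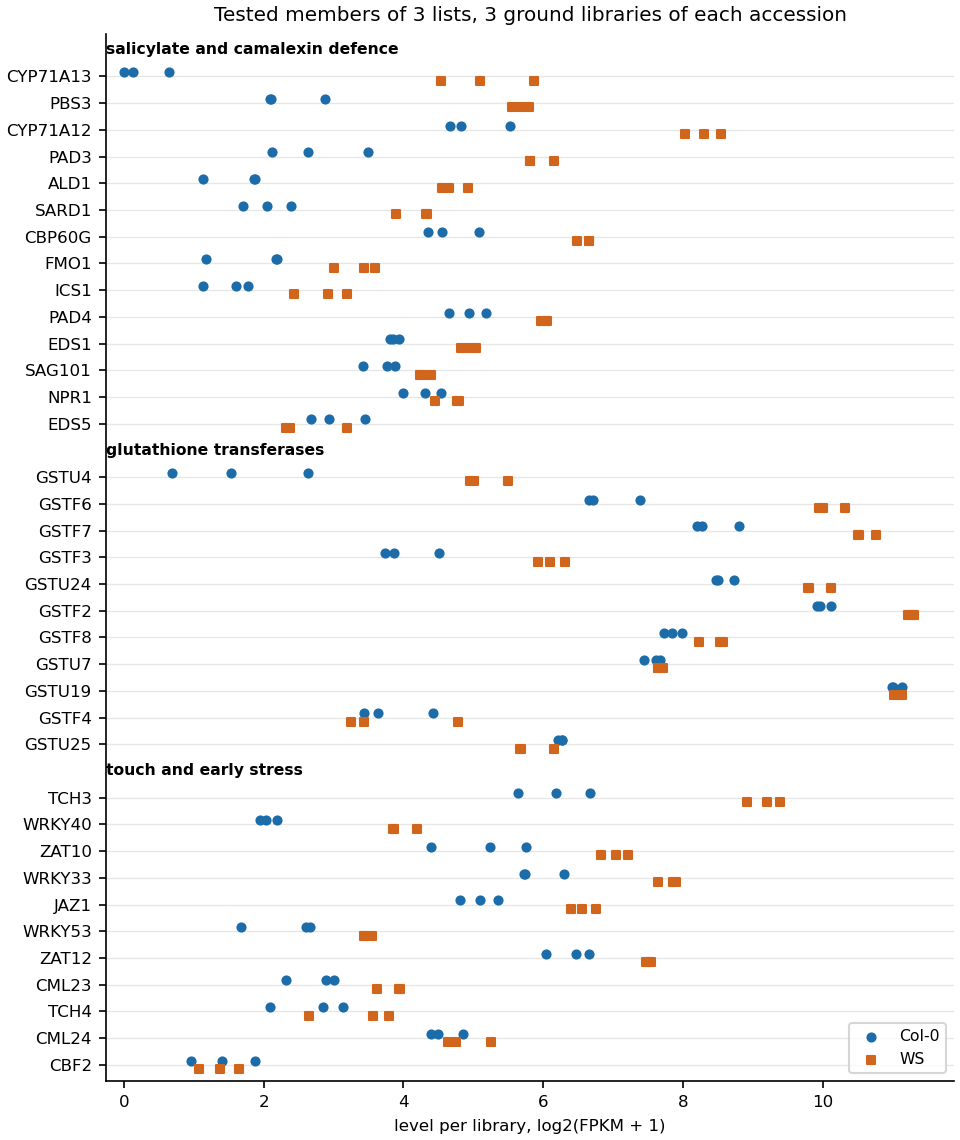
Level of each tested member of 3 lists in single libraries, on the log2(FPKM + 1) scale, with Col-0 ground libraries as blue circles above WS ground libraries as orange squares. Most defence, glutathione transferase and touch genes have all 3 Col-0 points left of all 3 WS points, while NPR1, GSTU7, GSTU19 and CBF2 overlap.

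These high WS levels were not seen in the WS libraries of the other mission. In ascending order over libraries, the summed level of the 14 salicylate and camalexin genes was 127, 155.6 and 195.3 FPKM on the ground in Col-0 and 685, 738 and 859 FPKM in WS. In flight libraries of the same mission it was 117, 131.9 and 174.9 FPKM in Col-0 and 312, 563 and 910 FPKM in WS. Col-0 and WS did not overlap in either. In the BO ground libraries of WS it was between 110.5 and 117.4 FPKM, below every Col-0 ground library. The sums of the lists were formed after the values were seen.

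Single genes showed this too. PBS3 lay between 0.14 and 0.40 FPKM in the 6 BO libraries of WS, below all 6 Col-0 libraries of the series, the lowest of which had 2.30 FPKM. Of the 11 defence genes called lower, 10 were separated on the same side in the flight libraries of the Virgin Galactic mission, and 1, EDS1, lay below all 12 BO libraries in the Col-0 flight libraries. For glutathione transferases these counts were 7 and 1 (GSTF8) of 7, and for touch and early stress genes 4 and 0 of 8. Over all 1340 lower calls the shares were 64.9% in flight and 27.3% against the BO libraries. The growth conditions and ages of the missions differ, and their part in these levels was not tested.

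**Figure D3:**
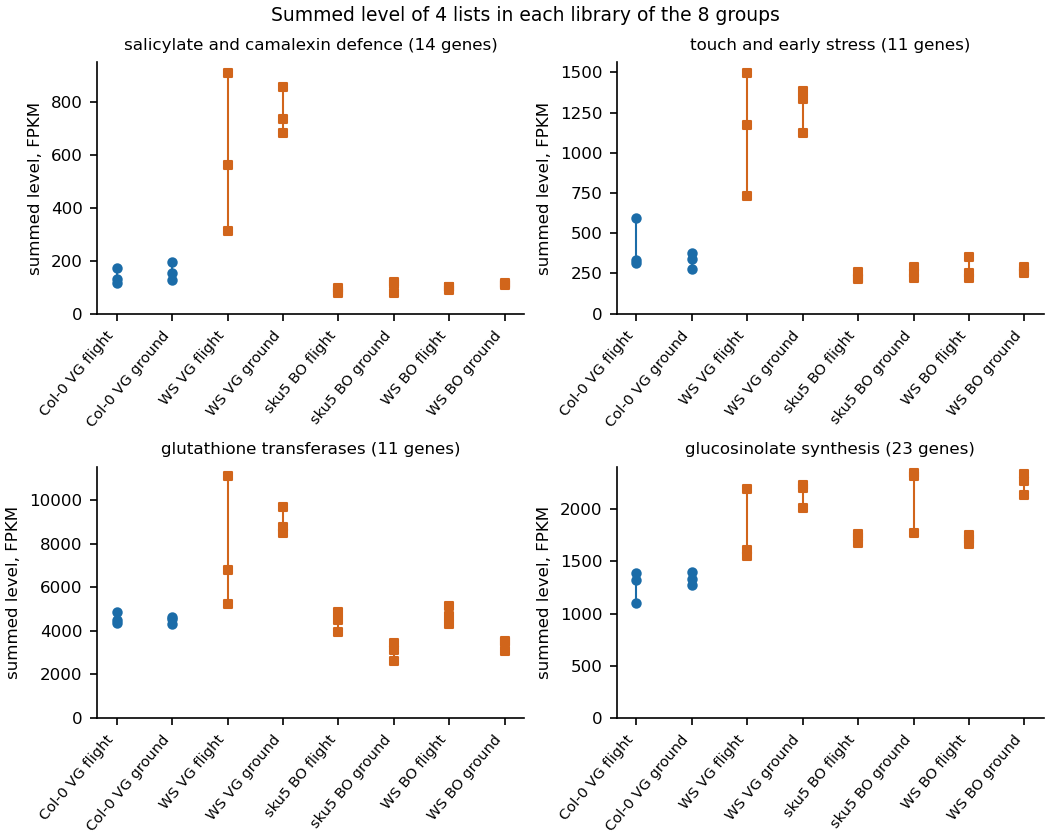
Summed FPKM of the tested members of 4 lists (y) in each library of the 8 groups (x), with Col-0 as blue circles and WS or sku5 as orange squares, each point 1 library and each line the range of the group. Salicylate and camalexin, touch and glutathione transferase sums are high in WS of the Virgin Galactic (VG) mission and near or below the Col-0 level in BO libraries, whereas glucosinolate synthesis sums in all WS and sku5 groups lie above those of Col-0.

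Several genes outside these lists, named for their large negative differences, also had lower levels in BO libraries of WS than in the WS ground roots. SAG13, a short-chain dehydrogenase marking stressed and ageing tissue, had 0, 0 and 1.08 FPKM in Col-0 and 27.1, 44.8 and 22.9 FPKM in WS (log2 -4.62, SE 0.37, limma adjusted p = 0.000125). ERF2, a transcription factor of ethylene and jasmonate responses, had 0.35, 10.4 and 0.28 FPKM in Col-0 and 51.2, 66.5 and 61.8 FPKM in WS. AOX1D, a mitochondrial alternative oxidase, had 0, 1.31 and 0.29 FPKM in Col-0 and 20.5, 30.1 and 18.6 FPKM in WS. In the BO libraries of WS, SAG13 reached at most 0.37 FPKM and ERF2 at most 6.14 FPKM. CML37, a calmodulin-like protein (log2 -3.23), separated the accessions in ground and in flight libraries of the Virgin Galactic mission but not in all 24 libraries. The same held for CYP706A1, a cytochrome P450 that shares 46.56% of its words with other genes (log2 -3.84). It also held for GSTU4 (log2 -3.53), which is already counted in the glutathione transferase list above. PI4KG3 did separate all 24, at a mean of 2.49 FPKM in Col-0 and 37.6 FPKM in WS on the ground (log2 -3.48). It has a symbol in the deposited tables but not in the reference, falls outside the naming rule, and was chosen after its values were seen.

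Some called glucosinolate genes separated the accessions in all 24 libraries and others did not. Of 23 tested synthesis genes, 8 were called lower (34.8%) and 1 higher (4.35%), beside 7.04% and 6.33% of all tested genes (median log2 -0.24). CYP81F2, which modifies indole glucosinolates, had 26.2, 39.5 and 30.8 FPKM in Col-0 and 198.5, 203.3 and 222.6 FPKM in WS (log2 -2.67, SE 0.15, limma adjusted p = 2.38e-05), but between 0.46 and 7.24 FPKM in BO libraries of WS. MYB51, an activator of the indole branch, had 20.8, 32.9 and 20.2 FPKM in Col-0 and 116.4, 129.1 and 141.4 FPKM in WS, and between 3.79 and 8.80 FPKM in BO libraries of WS. These 2 genes thus lay lower in WS of the later mission than in Col-0 ground roots.

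CYP79B2, which turns tryptophan into the aldoxime precursor, behaved otherwise. It had 24.1, 30.2 and 27.9 FPKM in Col-0 and 148.7, 182 and 128.6 FPKM in WS (log2 -2.43, SE 0.15, limma adjusted p = 3.98e-05). The 6 Col-0 libraries lay below all 18 libraries of WS background, as they did for the sulphotransferase SOT16 (log2 -1.01) and the side-chain oxygenase FMO GS-OX4 (log2 -1.47). MAM1, which elongates the methionine chain of aliphatic glucosinolates, was the member called higher. It had 27.8, 28.4 and 34.1 FPKM in Col-0 and 11.3, 13.1 and 15.3 FPKM in WS (log2 1.13, SE 0.17, adjusted p = 0.00293), a call lost when the 12 libraries of the mission were fitted together. AOP2 and AOP3, side-chain enzymes known to vary among accessions, reached at most 0.19 FPKM in the 6 libraries and were not tested.

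Called genes of glucosinolate breakdown were mostly lower in Col-0, beside 7.04% of all tested genes. Of 14 tested genes of hydrolysis and of endoplasmic reticulum bodies, 6 were called lower (42.9%) and 1 higher (median log2 -0.62). In the Col-0 flight libraries 5 of the 6 lay below all 12 BO libraries, beside 27.3% of all lower calls. NSP4, a nitrile-specifier protein that shares 23.53% of its words with other genes, had 15.6, 19.0 and 20.3 FPKM in Col-0 and 168, 195.6 and 157.9 FPKM in WS (log2 -3.18, SE 0.14, limma adjusted p = 6.38e-06). Across all 24 libraries it lay between 11.3 and 21.6 FPKM in Col-0 and between 138.7 and 265.7 FPKM in WS background. ESP, the epithiospecifier protein, was listed at 0 in all 6 Col-0 libraries and had 2.27, 4.23 and 2.39 FPKM in WS ground roots. PYK10, the main beta-glucosidase of these bodies, was the higher member, with 4793, 4275 and 4457 FPKM in Col-0 and 2688, 3527 and 2914 FPKM in WS (log2 0.57, SE 0.13, adjusted p = 0.0233). JAL33, a lectin of the PYK10 complex, had 560, 505.6 and 611 FPKM in Col-0 and 40.7, 51.2 and 44.6 FPKM in WS (log2 3.59, SE 0.12, adjusted p = 2.68e-06). All 6 Col-0 libraries lay above all 18 others for JAL33 and not for PYK10.

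Immune receptors of the nucleotide-binding leucine-rich repeat class (NLRs) varied gene by gene and not as a group. Of 21 tested, 4 were called higher and 2 lower (19.0% and 9.52%, beside 6.33% and 7.04% of all tested genes). The median log2 difference was -0.01, and their summed level was between 162.3 and 175.6 FPKM in Col-0 and between 163.6 and 175.7 FPKM in WS. All 6 called genes also separated the 6 Col-0 libraries from the 18 of WS background, beside 55.8% of all higher calls and 19.7% of all lower calls. CHS3, an NLR known from a chilling-sensitive mutant, had 11.4, 9.11 and 11.0 FPKM in Col-0 and was listed at 0 in every library of WS background. CSA1, its neighbour and partner, had 4.35, 2.80 and 3.36 FPKM in Col-0 and 0.03, 0.04 and 0.02 FPKM in WS (log2 2.11, SE 0.29, limma adjusted p = 0.00202). Both receptors of this pair were therefore near or at 0 in WS.

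RPP1, a receptor of downy mildew, had 10.4, 10.2 and 6.71 FPKM in Col-0 and 2.56, 3.40 and 2.55 FPKM in WS. RPP4, of the same function in another cluster, had 0.25, 0.02 and 0.03 FPKM in Col-0 and 3.08, 3.28 and 3.28 FPKM in WS. RLM1, named for resistance to blackleg fungus, was listed at 0 in all 6 Col-0 libraries and had 2.96, 4.37 and 2.62 FPKM in WS. Of the transcript of RPP1, 44.36% of 50-base words, and of RPP4, 29.12%, also occur in other genes of the reference, so reads may be shared between relatives and these values are uncertain. RPS4 and RRS1, a receptor pair with known variants, were not called (log2 -0.08, SE 0.24, and 0.06, SE 0.23). Neither was SNC1 (log2 0.68, SE 0.27, adjusted p = 0.146).

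Of 14 tested pattern receptors and partners at the cell surface, 1 was called higher and 1 lower (7.14% each, beside 6.33% and 7.04% of all tested genes), with a median log2 difference of -0.25. RLP42, which detects fungal polygalacturonases, had 2.08, 1.51 and 1.45 FPKM in Col-0 and 0, 0 and 0.01 FPKM in WS. SOBIR1, the adaptor kinase of such receptors, had 28.7, 25.8 and 29.7 FPKM in Col-0 and 45.6, 41.0 and 47.4 FPKM in WS. Both calls were lost without WS library 1. That of RLP42 was also lost without WS library 2 or 3 and with the replicate number as a block. The summed level of the list was between 167.2 and 184.2 FPKM in Col-0 and between 215.7 and 219 FPKM in WS. FLS2, the flagellin receptor, stayed below 1 FPKM in all 6 libraries and was not tested.

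The share of genes called higher in Col-0 varied with the kind of gene and was largest for transposable elements among the 4 kinds with at least 50 tested members. Of 70 tested transposable element genes, 31 (44.3%) were higher and 5 (7.14%) lower. Of 211 non-coding RNAs, 44 (20.9%) were higher and 17 (8.06%) lower, against 1106 (5.94%) and 1303 (6.99%) of 18628 protein-coding genes. Genes without signal in WS ground libraries that reached the limit for testing through Col-0 alone could only be called higher. They included 19 transposable elements, 15 non-coding RNAs and 69 protein-coding genes, against 2, 3 and 67 that reached it through WS alone. The part of the limit for testing in these shares was not tested. Pseudogenes were called in both directions, 19 higher and 15 lower of 95. The shares were even over the chromosomes, from 5.66% to 6.65% higher and from 6.57% to 7.47% lower. Genes at least 20% of whose 50-base words recur in other genes made up 17.1% of higher calls of log2 2 or more, 7.0% of lower calls of that size and 2.23% of tested genes.

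**Figure D4:**
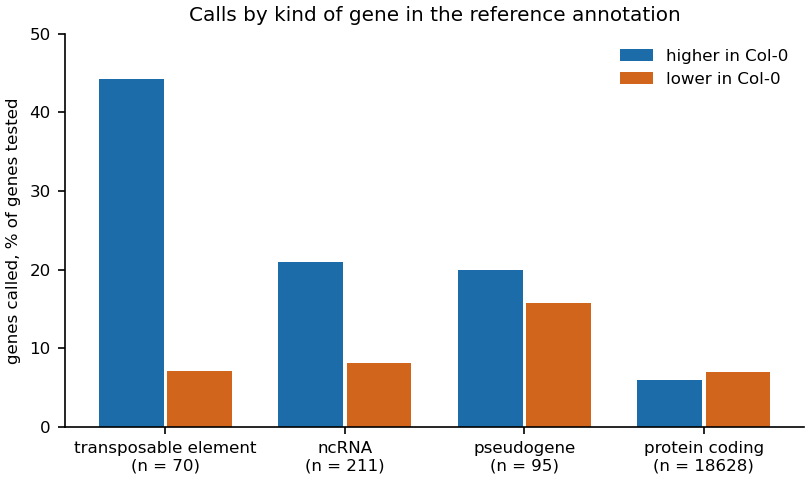
Share of tested genes called higher (blue) and lower (orange) in Col-0, in percent, for the 4 kinds of gene with at least 50 tested members. Transposable elements show 44.3% higher and 7.14% lower, and protein-coding genes 5.94% and 6.99%. Genes that reached the limit for testing through Col-0 alone, without signal in WS, could only be called higher.

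Sadhu elements, short retroposons of Arabidopsis known for silencing that varies between accessions, were among the named genes in both directions. SADHU1-1 had 549, 575 and 545 FPKM in Col-0 and 0, 0 and 0.94 FPKM in WS (log2 8.80, SE 0.25, limma adjusted p = 1.52e-06). SADHU3-2 had 7.03, 78.3 and 5.75 FPKM in Col-0 and was listed at 0 in all 18 libraries of WS background. SADHU10-1 ran the other way, with 7.03, 13.5 and 12.9 FPKM in Col-0 and 148.6, 161.4 and 130.1 FPKM in WS (log2 -3.65, SE 0.23, adjusted p = 3.54e-05). Col-0 library 2 held most of the SADHU3-2 signal. Sadhu4-2 was also higher (log2 3.42, SE 0.57, adjusted p = 0.00543), although its WS libraries ranged from 1.79 to 15.1 FPKM and 94.55% of its words recur in other genes. SADHU1-1, Sadhu4-2, CYP71A13, CYP705A27, CNGC12 and TTN10 overlap other genes in the reference annotation, and without a stated strand setting their reads cannot be told apart from those of the partner. The primary transcript of MIR822, a microRNA gene, had 36.1, 72.0 and 66.7 FPKM in Col-0 and 0, 1.2 and 0.24 FPKM in WS (log2 5.35, SE 0.36, adjusted p = 5.17e-05).

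A set of genes was listed at 0 in all ground libraries of one accession and at 1 FPKM or more in all 3 of the other. There were 111 such genes at 0 in WS, of which 74 were at 0 in all 18 libraries of WS background. Conversely, 77 were at 0 in Col-0, of which 40 were at 0 in all 6 Col-0 libraries. The genes at 0 in WS included 69 protein-coding genes, 19 transposable elements, 15 non-coding RNAs and 8 pseudogenes, and those at 0 in Col-0 included 67, 2, 3 and 5. The 77 genes at 0 in Col-0 became 130, 119 and 117 without Col-0 library 1, WS library 2 and WS library 3. Leaving out a library loosens the rule, so either count can only stay or rise. With 5 FPKM or more asked of the other accession, there were 59 genes at 0 in WS and 16 at 0 in Col-0.

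PP2-A8 and PP2-A6 are neighbouring genes of the phloem protein 2 family of lectin-like proteins. PP2-A8 had 65.8, 91.7 and 99.4 FPKM in Col-0 and 0, 0 and 0.25 FPKM in WS (log2 6.31, SE 0.22, limma adjusted p = 2.68e-06). PP2-A6 had 82.0, 68.7 and 96.2 FPKM in Col-0 and was listed at 0 in the 3 WS ground libraries. Neither was above 1.77 FPKM in any library of WS background. PP2-A7, the next gene of the row, chosen after its values were seen, was also higher in Col-0 and listed at 0 in WS. TTN10, a GINS complex protein of DNA replication, had 17.8, 17.5 and 15.4 FPKM in Col-0 and was listed at 0 in WS ground roots. CNGC12, a cyclic nucleotide-gated channel linked to immunity, had 15.1, 16.3 and 17.2 FPKM in Col-0 and 0, 0 and 0.01 FPKM in WS. The rules that named PP2-A8, PP2-A6, TTN10 and CNGC12 ask that the ground groups do not overlap, so their separation there is no further result. TTN10 shares 47.19% and CNGC12 20.39% of its words with other genes, so both values are uncertain.

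On the other side, GDU6, a membrane protein of the glutamine dumper family, was listed at 0 in all 6 Col-0 libraries and had 13.4, 18.4 and 7.78 FPKM in WS. GSTU15, a tau-class glutathione transferase, was listed at 0 in all 6 Col-0 libraries and had 5.83, 5.98 and 5.92 FPKM in WS. Both were above 1 FPKM in every library of WS background. Other genes at 0 in Col-0 ground roots were not at 0 throughout. NIMIN1, which binds the salicylate receptor NPR1, had 3.66, 10.7 and 16.1 FPKM in WS ground roots but 10.9 FPKM in 1 Col-0 flight library.

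Further genes with large positive differences separated the accessions in all 24 libraries. UPI, a protease inhibitor of defence against fungi and insects, had 1302, 847 and 1231 FPKM in Col-0 and 95.1, 86.0 and 78.2 FPKM in WS (log2 3.67, SE 0.17, limma adjusted p = 6.87e-06). GRP3S, a glycine-rich secreted protein, had 97.4, 120.9 and 115.9 FPKM in Col-0 and 5.87, 5.21 and 4.91 FPKM in WS. CYP705A27, a cytochrome P450, had 26.7, 17.3 and 22.8 FPKM in Col-0 and 0, 0.09 and 0 FPKM in WS. TH7, a thioredoxin (log2 3.44), and the MIR414 locus (log2 3.67) belonged here too. EARLI1, a lipid-transfer-like wall protein, was higher on the ground (log2 4.07, SE 0.29, adjusted p = 6.25e-05), but its highest value in WS background, 10.3 FPKM, overlapped its lowest in Col-0, 8.90 FPKM.

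**Figure D5:**
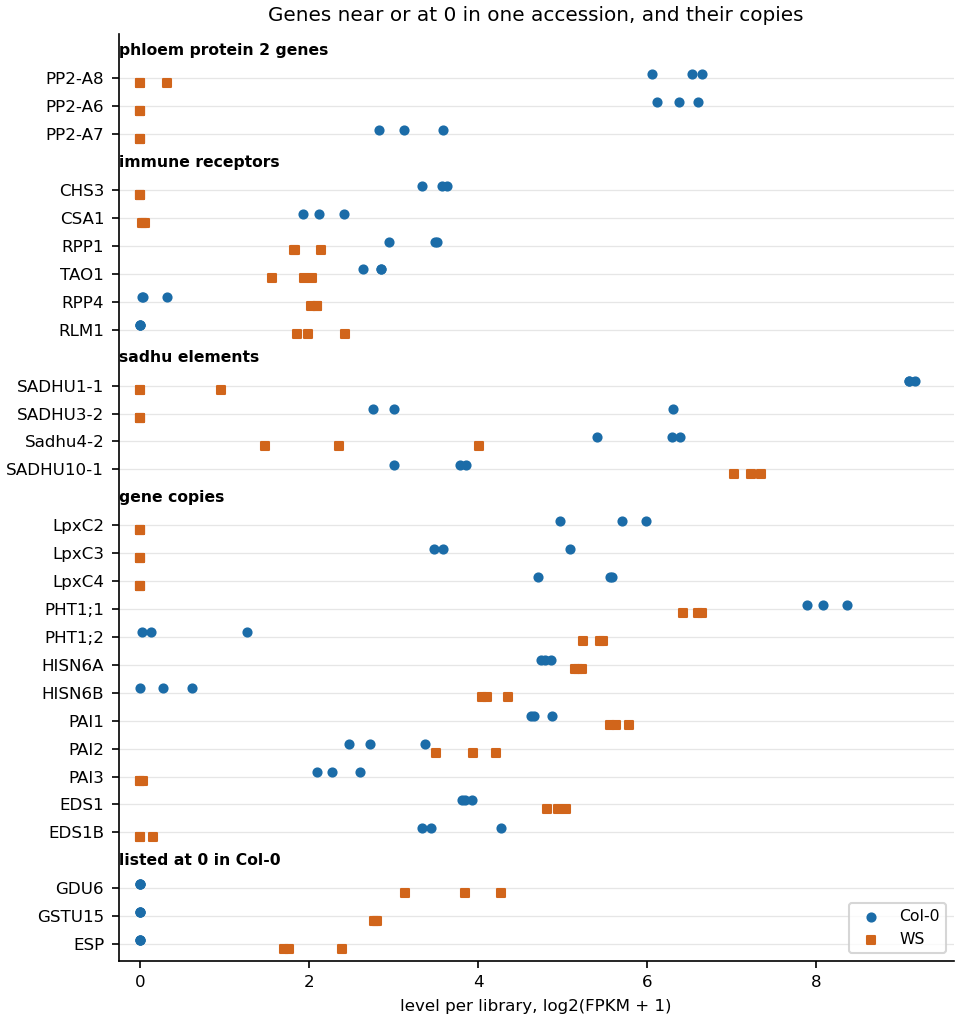
Level of genes near or at 0 in one accession, and of their copies, in single ground libraries on the log2(FPKM + 1) scale, with Col-0 as blue circles above WS as orange squares. PP2-A8, PP2-A6, PP2-A7 and CHS3 have WS points at or near 0 and Col-0 points far to the right, GDU6, GSTU15 and ESP have Col-0 points at 0 and WS points to the right, and copies such as PHT1;1 and PHT1;2 differ in opposite directions.

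Near-identical gene copies can exchange reads, so their levels were also summed, a choice made after seeing the values. LpxC2, LpxC3 and LpxC4, copies of an enzyme of lipid A-like synthesis within 1 stretch of chromosome 1, were all listed at 0 in the WS ground libraries. Over the 5 LpxC copies, the sum was 130.2 ± 35.0 FPKM in Col-0 and 5.16 ± 2.2 FPKM in WS (SD, n = 3 each). Between 81.2% and 100% of the words of these transcripts recur in other genes, so only the sum can be read. The sum stayed far higher in Col-0.

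PHT1;1 and PHT1;2, neighbouring phosphate importers of the root, moved in opposite directions. PHT1;1 had 236.7, 270.7 and 327.9 FPKM in Col-0 and 84.8, 99.7 and 96.3 FPKM in WS (log2 1.55, SE 0.14, limma adjusted p = 0.000209). PHT1;2 had 0.02, 1.40 and 0.10 FPKM in Col-0 and 36.9, 43.7 and 42.5 FPKM in WS (log2 -4.91, SE 0.33, adjusted p = 5.17e-05). Their sum was 278.9 ± 46.0 FPKM in Col-0 and 134.6 ± 11.5 FPKM in WS (SD, n = 3 each). PHT1;2 also separated all 24 libraries, whereas PHT1;1 reached 402.6 FPKM in a BO library. Of the words of PHT1;1 and PHT1;2, 42.4% and 45.4% recur in other genes, so their single values are uncertain.

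HISN6A and HISN6B encode an enzyme of histidine synthesis, and the loss or silencing of a copy differs among accessions. HISN6B had 0.21, 0 and 0.53 FPKM in Col-0 and 16.2, 19.4 and 15.5 FPKM in WS (log2 -3.87, SE 0.26, limma adjusted p = 4.88e-05). HISN6A was not called (log2 -0.39, SE 0.12, adjusted p = 0.0729), and the sum of both was 27.2 ± 1.43 FPKM in Col-0 and 52.5 ± 1.56 FPKM in WS (SD, n = 3 each). The PAI genes of tryptophan synthesis are a known case in which WS carries an additional, inverted copy and methylates the family. PAI3 had 3.85, 5.06 and 3.27 FPKM in Col-0 and 0.03, 0 and 0 FPKM in WS, while PAI1 had 23.7, 28.4 and 24.3 FPKM in Col-0 and 48.6, 54.2 and 46.1 FPKM in WS. The groups did not overlap in either gene. PAI2 lay just inside the threshold (log2 -1.03, SE 0.29, adjusted p = 0.0496) and its call was lost without Col-0 library 2 or 3 or WS library 1 or 2. It was also lost with a pseudocount of 0.1, no filter on low values, quantile normalization, median-ratio scaling or no mean-variance trend. Of the words of PAI1 and PAI2, 49.3% and 61.1% recur in other genes, and of HISN6A and HISN6B 48.9% and 77.5%, so single values are uncertain. The sum of the 3 was 36 ± 3.52 FPKM in Col-0 and 63.7 ± 6.4 FPKM in WS (SD, n = 3 each).

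EDS1 and EDS1B are tandem genes of a lipase-like immune regulator. EDS1B had 9.12, 9.90 and 18.3 FPKM in Col-0 and 0, 0 and 0.11 FPKM in WS (log2 3.63, SE 0.31, limma adjusted p = 0.000181). EDS1 had 14.3, 13.4 and 13.1 FPKM in Col-0 and 29.9, 27.3 and 31.9 FPKM in WS (log2 -1.07, SE 0.14, adjusted p = 0.00154). Each separated the 6 Col-0 libraries from the 18 of WS background, in opposite directions. The sum was 26.0 ± 4.62 FPKM in Col-0 and 29.7 ± 2.36 FPKM in WS (SD, n = 3 each), and the libraries of the accessions overlapped in it. Their transcripts share 0.91% and 0.919% of words with other genes.

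Called genes also lay side by side. With a log2 difference of at least 1, there were 16 runs of 3 or more neighbouring tested genes higher in Col-0 and 11 runs lower. They held 55 of the 632 higher genes and 37 of the 861 lower genes of that size, so most such genes lay outside runs. The longest held 8 higher genes around the LpxC copies, among them the F-box gene AT1G24800, with 45.1, 68.6 and 57.6 FPKM in Col-0 and 0 in the 3 WS libraries. The non-coding RNA AT1G25098 in it had 595, 445 and 590 FPKM in Col-0 and 0.47, 0 and 1.58 FPKM in WS. Most transcripts of this run consist of words that recur elsewhere, so reads may be shared between its members and their single values are uncertain.

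A run of 5 lower genes on chromosome 5 encodes proteins annotated for copper or heavy-metal transport. AT5G52720 in it had 3.53, 8.85 and 5.61 FPKM in Col-0 and 39.4, 76.3 and 49.6 FPKM in WS (log2 -3.02). A run of 4 lower genes on chromosome 1 encodes berberine bridge-like oxidases, with AT1G26380 at 8.32, 21.8 and 14.9 FPKM in Col-0 and 148.2, 145.3 and 141.8 FPKM in WS (log2 -3.28). Another run of 4, from AT1G72900 to AT1G72940, encodes proteins with a Toll-Interleukin domain. In these 3 runs no member separated all 24 libraries, beside 19.7% of all lower calls. AT1G72920 and AT1G72940 had calls that were lost under other settings, AT1G72920 without Col-0 library 1 or 3 or any WS library and AT1G72940 with the flight libraries in the fit. AT1G72920 was also lost with a pseudocount of 0.1, no filter on low values or no mean-variance trend.

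Another run of higher genes separated the accessions throughout the series. In a run of 4 on chromosome 4, AT4G07820, a CAP-family protein related to PR1, had 425.5, 373.2 and 490.9 FPKM in Col-0 and 56.6, 43.1 and 50.2 FPKM in WS (log2 3.08, SE 0.14, limma adjusted p = 6.87e-06). AT4G07507, AT4G07825 and AT4G07868 completed it, and all 4 separated the 24 libraries, beside 55.8% of all higher calls. AT4G07868 lost its call without WS library 1. The CHS3 and CSA1 run also held PSRP6, a chloroplast ribosome protein with 56.0, 77.9 and 67.0 FPKM in Col-0 and 26.6, 17.2 and 30.0 FPKM in WS. PSRP6 was chosen after its values were seen.

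Nutrient transport and iron genes were called in both directions. Of 20 tested nitrate, phosphate and ion transport genes, 5 were higher (25%) and 6 lower (30%), with a median log2 difference of 0.01. The shares over all tested genes were 6.33% and 7.04%. PHO1, which loads phosphate into the xylem, had 355.5, 331.3 and 350.3 FPKM in Col-0 and 191, 201.2 and 225.4 FPKM in WS. The ammonium transporter AMT1;3 had 100.5, 105.2 and 117.3 FPKM in Col-0 and 52.5, 51.6 and 62.8 FPKM in WS. HKT1, which retrieves sodium from the xylem, had 0.91, 0.54 and 0.32 FPKM in Col-0 and 6.43, 3.99 and 8.41 FPKM in WS (log2 -2.16, SE 0.32, limma adjusted p = 0.00304). HKT1 alone of these 3 separated all 24 libraries.

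Most called iron genes were higher in Col-0. Of 24 tested, 6 were higher (25%) and 1 lower (4.17%), beside 6.33% and 7.04% of all tested genes (median log2 0.09). In the Col-0 flight libraries 1 of the 6 lay above all 12 BO libraries, beside 64.6% of all higher calls. FIT, the main activator of iron uptake, had 95.0, 87.2 and 127.7 FPKM in Col-0 and 38.8, 49.4 and 50.1 FPKM in WS (log2 1.14, SE 0.17, limma adjusted p = 0.00321). MYB10, which activates the nicotianamine synthase gene NAS4, had 6.52, 9.47 and 7.67 FPKM in Col-0 and 0.63, 0.74 and 0.45 FPKM in WS. NAS2, of nicotianamine synthesis, had 14.0, 8.76 and 15.0 FPKM in Col-0 and 2.04, 2.28 and 2.26 FPKM in WS. These 3 separated completely on the ground and in flight roots of the mission, but MYB10 reached 25.1 FPKM and NAS2 92.5 FPKM in BO libraries of sku5. NRAMP1, a manganese and iron importer, had 228.5, 201.3 and 246.1 FPKM in Col-0 and 130.1, 113.9 and 144 FPKM in WS, and all 6 Col-0 libraries lay above the 18 others. F6'H1, of coumarin synthesis, was the lower member (log2 -1.08, SE 0.17, adjusted p = 0.00464), and the proton pump AHA2 was not called (log2 0.29, SE 0.10, adjusted p = 0.0863).

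Of 20 tested genes of skewing, gravitropism and auxin transport, 1 was higher and 1 lower, 10.0% in all beside 13.4% of all tested genes (median log2 -0.02). SKU5, a wall glycoprotein whose loss makes roots skew, had 56.5, 58.2 and 51.9 FPKM in Col-0 and 30.3, 34.1 and 27.6 FPKM in WS (log2 0.84, SE 0.13, limma adjusted p = 0.0035). In BO libraries of WS it lay between 51.1 and 94.2 FPKM, at and above the Col-0 level. WVD2, a microtubule-associated protein of root waving, had 1.66, 3.13 and 3.47 FPKM in Col-0 and 17.3, 26.7 and 19.0 FPKM in WS (log2 -2.56, SE 0.27, adjusted p = 0.000473), but between 2.37 and 3.88 FPKM in BO libraries of WS. No Col-0 library of that mission was analysed here, so an accession difference within it cannot be read. SKS1 (log2 -0.49, SE 0.22) and SPR1 (log2 -0.19, SE 0.11) were not called.

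Of 12 tested photoreceptor and light signalling genes, HY5 was the only call (8.33%, beside 13.4% of all tested genes). This light-response transcription factor had 58.6, 52.1 and 66.9 FPKM in Col-0 and 21.7, 20.3 and 20.8 FPKM in WS (log2 1.45, SE 0.13, limma adjusted p = 0.000254). PHYD, the phytochrome known to carry a deletion in WS, was not called (log2 0.07, SE 0.26, adjusted p = 0.897). Of 8 tested flowering-time genes, MAF2, a floral repressor, was the only call (12.5%, beside 13.4% of all tested genes). It was higher, with 79.0, 56.5 and 88.3 FPKM in Col-0 and 36.9, 43.1 and 37.2 FPKM in WS, a call lost without WS library 1. FRI was not called (log2 0.13, SE 0.24), and FLC had 0.83, 0.49 and 2.99 FPKM in Col-0 and 0.15, 0.64 and 1.02 FPKM in WS and was not tested.

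Among 19 tested genes with published variants between accessions, a list made to hold such genes, 5 were higher and 6 lower (median log2 -0.08). These were 26.3% and 31.6% of the list, beside 6.33% and 7.04% of all tested genes. Besides the genes above it held HMA3, a cadmium transporter of the vacuole, which was not called (log2 -0.32, SE 0.28, adjusted p = 0.526). QQS, a gene of carbon and nitrogen allocation without relatives outside the species, had 0.74, 21.1 and 5.66 FPKM in Col-0 and was listed at 0 in WS, but missed the limit for testing. Its Col-0 libraries spread widely. Among 13 tested terpene genes, PEN1, the arabidiol synthase, had 27.5, 35.9 and 29.3 FPKM in Col-0 and 4.07, 3.22 and 3.97 FPKM in WS (log2 2.74, SE 0.19, limma adjusted p = 5.11e-05). All 6 Col-0 libraries lay above the 18 others for PEN1. CYP71A16, of the marneral cluster, was called lower (log2 -0.93), a call lost without Col-0 library 1 or 2 or WS library 1 or 2 and with the flight libraries in the fit.

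Of 21 tested class III peroxidases, 4 were lower (19%) and 1 higher (4.76%), beside 7.04% and 6.33% of all tested genes (median log2 -0.23). PER4 had 5.11, 14.6 and 8.82 FPKM in Col-0 and 76.8, 109.9 and 82.1 FPKM in WS (log2 -3.20, SE 0.31, limma adjusted p = 0.000328). PER62 had 25.4, 26.6 and 30.4 FPKM in Col-0 and 93.4, 128.1 and 97.3 FPKM in WS, but at most 8.85 FPKM in BO libraries of WS. PER37 had 29.4, 28.2 and 30.6 FPKM in Col-0 and 77.3, 96.4 and 92.0 FPKM in WS, and separated all 24 libraries. These oxidative enzymes of the wall thus included members of both kinds. The higher call, PER3 (log2 0.56), was lost without any of Col-0 libraries 1, 2 and 3 or WS libraries 1 and 3, and with no mean-variance trend.

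Of 10 tested hypoxia genes, 1 was higher and 2 lower (30.0% called), and of 7 tested flavonoid genes, 1 was lower (14.3% called), beside 13.4% of all tested genes. SUS1, a sucrose synthase, had 20.6, 21.0 and 14.3 FPKM in Col-0 and 46.4, 41.7 and 58.6 FPKM in WS (log2 -1.35, SE 0.19, limma adjusted p = 0.00244), and separated all 24 libraries. ADH1, alcohol dehydrogenase (log2 1.2), ETR2, an ethylene receptor (log2 -0.78), and UGT78D2, a flavonoid glucosyltransferase (log2 -0.86), each lost their calls without WS library 1, without Col-0 library 1 or 3, and without WS library 3. ETR2 also lost its call under quantile normalization and median-ratio scaling, and UGT78D2 without a mean-variance trend. By limma, 0 of 7 heat shock genes and 0 of 6 reference genes were called, and 0 and 3 of them had an unadjusted p under 0.05. GAPC2 (log2 0.32, SE 0.10, adjusted p = 0.0611) and ACT2 (log2 0.32, SE 0.10, adjusted p = 0.0729) were close to the threshold, both towards Col-0. The summed level of the 6 reference genes was between 4218 and 4464 FPKM in Col-0 and between 3660 and 4179 FPKM in WS, without overlap. Their median log2 difference was 0.21, beside -0.06 over all tested genes.

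Markers of root tissues were detected in both accessions. By limma, root hair, endodermis, dividing-cell and photosynthesis lists held 0 calls among 7, 8, 7 and 9 tested members, and 2, 0, 1 and 0 members had an unadjusted p under 0.05. Their sums overlapped between the accessions. The summed level of 6 xylem markers was between 95.0 and 112.8 FPKM in Col-0 and between 122.1 and 182.7 FPKM in WS, with 0 calls by limma and 1 member at an unadjusted p under 0.05. That of 4 phloem markers was between 37.8 and 41.6 FPKM in Col-0 and between 47.9 and 60.6 FPKM in WS, again with 0 calls and 1 member at an unadjusted p under 0.05. The root cap list had 1 call of 4, the nuclease BFN1 (log2 -0.75, SE 0.16, limma adjusted p = 0.0147), which was lost without WS library 1 or 2, and sums between 20.2 and 22.5 FPKM in Col-0 and between 24.4 and 35.0 FPKM in WS. In bulk roots, fewer cells of a type and less RNA per cell cannot be told apart, and the part of these vascular and root cap levels in the results was not tested. No tested marker was at 0 in all 3 libraries of either accession.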

How the data were processed

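Values were taken as FPKM from the deposited tables of the authors, one for Col-0 and one for WS and sku5, and the unit was read from the values. Per the submitters' processing notes, Trimmomatic 0.36, FastQC 0.11.4, MultiQC 1.1, STAR 2.7.3a, RSEM 1.2.31 and DESeq2 were used upstream. The genome build, annotation and strand setting were not given in the sources used here. The tables hold no read numbers, so the depth is unknown. Per the labels' protocols, poly(A) RNA was prepared with a directional kit and ERCC spike-in mix.

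Tables were joined by gene identifier (32844 genes). Values were compared across tables because sums weighted by transcript length overlapped between the whole tables (1386972 to 1430600 in the Col-0 table, 1341435 to 1388651 in the other). They did not overlap among the ground libraries (1396389 to 1409783 in Col-0, 1351151 to 1369655 in WS). Each sum covered all genes of its own table, so the Col-0 sums include 625 genes that the other table lacks. Genes that reached 1 FPKM in 3 or more of the 6 libraries were tested on log2(FPKM + 1) with limma 3.58.1 in R 4.3.3, with a mean-variance trend, two-sided, and Benjamini-Hochberg adjustment over all 19028 genes. There were 4 residual degrees of freedom (8.36 after moderation). Fold changes on this scale understate those of low genes. The script was tested on simulated data. Tables and figures were made with Python 3.11.15, pandas 2.3.3, numpy 2.4.6 and matplotlib 3.10.9.

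The members and the 26 gene lists (370 genes kept of 382 written, 11 names unmatched and 1 gene not in both tables) were chosen with earlier results of these data known. Genes were named by a rule. It took 12 genes per direction by size of difference, among called genes that have a symbol in the RefSeq annotation (a symbol in the deposited tables alone did not count), whose groups do not overlap, whose higher mean reaches the median and whose lower group is not all at 0. It took the 8 symbols per direction with the highest mean among genes at 0 in one accession, up to 5 called and 2 uncalled members of each list, a fixed set of known variants, and the 5 longest runs of neighbours. Sums of lists and copies, the comparison with BO libraries, families by symbol stem and the scaling without ribosomal RNA genes were chosen after values were seen. The RefSeq TAIR10.1 annotation gave symbols, order, lengths and shared 50-base words only, and matched 32375 identifiers. Alternatives changed the pseudocount, filter, scaling, fitted libraries, trend and block, and left out each library.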

Additional observations from a re-analysis of the deposited data

Results flagged for a closer look

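For 3 genes the ground and flight libraries of the Virgin Galactic mission pointed in opposite directions, every Col-0 library lying on one side of every WS library on the ground and on the other side in flight. The difference between ground and flight was not tested. AT1G63310 had 12.9, 15.0 and 11.2 FPKM in Col-0 and 19.7, 29.5 and 22.8 FPKM in WS on the ground (log2 -0.83), but between 15.7 and 18 FPKM in Col-0 and between 11.9 and 14.2 FPKM in WS in flight. AT3G53220 had 8.33, 7.72 and 16.9 FPKM in Col-0 and 3.27, 4.52 and 4.14 FPKM in WS on the ground (log2 1.2), but between 1.24 and 8.43 FPKM in Col-0 and between 9.16 and 10.3 FPKM in WS in flight. AT3G57740 had 1.96, 0.37 and 0.28 FPKM in Col-0 and 3.18, 5.68 and 3.96 FPKM in WS on the ground (log2 -1.58), but between 3.98 and 5.91 FPKM in Col-0 and between 1.38 and 3.42 FPKM in WS in flight. AT3G57740 overlaps another gene in the reference annotation, and its reads cannot be told apart from those of the partner. These 3 stand among 2545 called genes.

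The Col-0 table lists 625 genes that the joined set does not hold, 146 of them mitochondrial by identifier, and 57 of the 625 lay at 1 FPKM or more in all 3 Col-0 ground libraries. They have no WS value here and entered no comparison. AT4G34881, the protein-coding gene with the highest mean, had 1389, 1227 and 1348 FPKM in Col-0, and FHA2, a forkhead-associated protein, had 67.7, 73.6 and 63.1 FPKM.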

How the results depend on the processing

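Of 120 called named genes, 106 kept their call under every alternative that gave a value and 14 lost it in at least 1; none of the 177 tested reversed direction. The 14 were ADH1, AT1G72920, AT1G72940, AT4G07868, BFN1, CYP71A16, ETR2, MAF2, MAM1, PAI2, PER3, RLP42, SOBIR1 and UGT78D2. The number of higher genes (1205) was between 931 and 1346 and that of lower genes (1340) between 1182 and 1390 under other pseudocounts, filters, scalings, trend and fitted libraries. Leaving out 1 library gave 628 to 1028 higher and 691 to 1124 lower genes, with fewer samples and fewer genes tested. The number of genes called with a log2 difference of at least 1, which was 1493, lay between 1072 and 1506. Quantile normalization and median-ratio scaling moved the median of all genes from -0.06 to within 0.01 of 0, and gave 1303 and 1346 higher and 1231 and 1211 lower genes. Genes at 0 in WS (111) numbered 59 and genes at 0 in Col-0 (77) numbered 16 when 5 FPKM was asked of the other accession. Leaving out 1 library, which loosens the rule and can only keep or raise the counts, gave 121 to 136 and 108 to 130. With the replicate number as a block, 1031 genes were higher and 1149 lower. Deviations of same-numbered libraries correlated at 0.047, 0.030 and -0.001, so the numbers were not taken to pair libraries. The unknown depth limits what can be said of genes near 0.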

Other observations

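Gene families of at least 15 tested members were formed by symbol stem after the values were seen, and the 7 with the highest shares of lower calls follow, beside 7.04% of all tested genes. Of 26 tested CYP71 cytochrome P450s, 12 were lower and 1 higher in Col-0, and of 34 calmodulin-like CML genes, 13 were lower and 1 higher. WRKY transcription factors, many of which act in defence, held 16 lower calls among 58 tested. Of 23 BGLU beta-glucosidases 8 were lower, of 22 JAL jacalin lectins 6 were lower and 3 higher, of 26 cysteine-rich receptor-like kinases (CRK) 7 were lower, and of 25 ANAC transcription factors 6 were lower. Members of lists described above are among the CYP71, CML, WRKY, BGLU and JAL genes. On the higher side, beside 6.33% of all tested genes, the 4 stems with the highest shares were RPP (8 of 22), PP (9 of 34), NUDT (6 of 26) and TCP (3 of 15). Their lower calls numbered 1, 2, 4 and 0, so NUDT (15.4% lower) was called in both directions. A stem can join unrelated genes: RPP names both immune receptors and ribosomal proteins. It can also split a family: the NAC stem, counted apart from ANAC, held 2 lower (5.56%) and 1 higher among 36 tested.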
